A study of Homo sapiens with 6 samples.

Results

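The transcript levels of 10 genes of the NRF2 and glutathione defense were described in the SU-CCS-1 cell line, an established line of clear cell sarcoma that carries the EWSR1::ATF1 fusion (EA1). The members were NFE2L2, KEAP1, GCLC, GCLM, GSR, TXNRD1, SRXN1, NQO1, HMOX1 and FTH1. They were the rows of the deposited counts with these gene symbols, 10 of 18118 genes. The genes were chosen by name after differences between these same libraries were known, so their differences with knockdown are a description, and the adjusted p-values below set a difference only against the spread between libraries. Cells received 5 pmol of control siRNA, EA1 siRNA 1 or EA1 siRNA 2 for 48 h, and the polyadenylated RNA of 2 libraries for each of these conditions was sequenced. The study's methods name 1 siRNA against EA1, while the labels list both. All 6 libraries come from 1 cell line, nothing states how separate the cultures of a condition were, and p-values then measure only the spread between these libraries.

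NRF2, the product of NFE2L2, is a bZIP transcription factor that pairs with small MAF proteins on the antioxidant response element (ARE). In resting cells KEAP1 holds NRF2 for ubiquitination by the CUL3 ligase, and oxidants or electrophiles that modify KEAP1 cysteines let NRF2 accumulate, so NRF2 activity is set largely at the protein level and was not measured here. Its known targets make glutathione, recycle glutathione and thioredoxin with NADPH, reduce quinones, degrade heme and store iron. ATF1, the partner of EWSR1 in the fusion, is a bZIP factor of the ATF/CREB family, which binds the cAMP response element (CRE).

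The summed counts of a library lay between 5942808 and 7599305, and 3 counts, the smallest number taken as told from 0, corresponded to 0.386 to 0.534 CPM, which covers counting error only. CPM here are counts scaled to the library total over the tested genes and its TMM factor. All 10 members passed the low-count filter of edgeR, as did 14571 genes in all. Replicates correlated across genes at 0.977 to 0.983 on the log2 scale. ATF1, whose 3′ part the fusion holds, fell from a mean of 84.8 CPM in control to 20.7 CPM with EA1 siRNA 1 and 22.02 CPM with EA1 siRNA 2 (adjusted p = 6.695e-07 and 1.045e-06, edgeR), while EWSR1 was at means of 215.5, 199.3 and 209.2 CPM (adjusted p = 0.450 and 0.789, edgeR). Reads of the fusion and of native ATF1 or EWSR1 cannot be told apart in these counts. The 7 melanocytic markers listed for clear cell sarcoma were all tested, and their summed level was 2863 to 3029 CPM in control, 7650 to 7843 CPM with EA1 siRNA 1 and 6884 to 10510 CPM with EA1 siRNA 2, a sum to which PMEL gave the most. Both controls were below all 4 knockdown libraries for MITF, PMEL, MLANA, TYR, S100B and ERBB3, while SOX10 overlapped between the groups, at 785.5 and 867.7 CPM in control against 847.4 to 979 CPM. MLANA lay near the floor, at 0 to 4.27 CPM. The part of these markers' levels in the results below was not tested. Of 8 markers of other cell types, CDH5 was in the counts, at 0.165 to 1.26 CPM, and the other markers were not analysed here. In such bulk libraries, fewer cells of one state and less RNA per cell cannot be told apart.

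Promoter sequences were read where they bear on members that moved with the knockdown. The RefSeq windows for GRCh38.p14, 250 bases before to 50 bases after each annotated start, held 10 windows of 7 members. GSR, HMOX1 and FTH1 had no window. The ARE core, searched as TGACNNNGC on both strands, was in 4 of the 10 windows, those of KEAP1, GCLM and TXNRD1, and in 13.3% of all 35116 windows. The stretches below are printed on the gene's strand with the 9 matching bases in capitals, since NRF2 is known to act through this element. They lie on the minus strand at chr19:10502802-10502840 and chr19:10502779-10502817 for KEAP1 and at chr1:93909441-93909479 for GCLM. They lie on the plus strand at chr12:104215665-104215703, chr12:104215756-104215794 and chr12:104286915-104286953 for TXNRD1.
KEAP1 upstream match: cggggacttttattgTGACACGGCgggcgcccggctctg
KEAP1 downstream match: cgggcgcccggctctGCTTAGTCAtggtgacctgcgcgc
GCLM match: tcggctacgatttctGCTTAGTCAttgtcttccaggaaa
TXNRD1 upstream start, first match: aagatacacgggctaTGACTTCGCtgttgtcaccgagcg
TXNRD1 upstream start, second match: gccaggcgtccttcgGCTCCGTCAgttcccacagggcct
TXNRD1 downstream start, match: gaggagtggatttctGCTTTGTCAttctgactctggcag

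The downstream match of KEAP1 and the match of GCLM had the same 9 letters. The full CRE, TGACGTCA, was in 0 of the 10 windows and in 1.85% of all windows. Its part TGACG, which can overlap the ARE core where the fifth base is G, was in 2 member windows and in 24.6% of all windows. In TXNRD1 it lay inside the second match of the upstream start, and in NFE2L2 it began 136 bases before the start. The AP-1 motif, TGANTCA, was in 0 of the 10 windows and in 7.71% of all windows. These are matches of letters and not bound sites. Sequence outside the windows was not searched, so a member without a match here may hold the element elsewhere. The whole windows of the members that moved the same way with both EA1 siRNAs follow, for NFE2L2 at chr2:177264678-177264977, for KEAP1 at chr19:10502722-10503021 and for GCLC at chr6:53545052-53545351, all on the minus strand. For NFE2L2 and KEAP1, which have 2 windows each, the window with a match is shown. In the KEAP1 window the ARE core is in capitals. The NFE2L2 window holds no ARE core, and its match, to TGACG, is left in small letters.
NFE2L2 promoter: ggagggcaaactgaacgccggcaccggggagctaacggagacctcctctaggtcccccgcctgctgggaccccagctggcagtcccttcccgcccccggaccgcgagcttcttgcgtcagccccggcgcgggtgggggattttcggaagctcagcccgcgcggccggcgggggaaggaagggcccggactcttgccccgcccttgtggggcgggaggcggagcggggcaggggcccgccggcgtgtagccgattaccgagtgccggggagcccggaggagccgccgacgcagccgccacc
KEAP1 promoter: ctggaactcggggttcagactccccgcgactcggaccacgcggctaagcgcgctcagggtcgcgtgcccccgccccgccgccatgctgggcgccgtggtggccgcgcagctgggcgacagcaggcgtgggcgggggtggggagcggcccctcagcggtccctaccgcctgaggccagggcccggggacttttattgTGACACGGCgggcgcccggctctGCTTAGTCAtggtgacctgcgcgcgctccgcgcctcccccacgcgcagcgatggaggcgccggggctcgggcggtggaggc
GCLC promoter: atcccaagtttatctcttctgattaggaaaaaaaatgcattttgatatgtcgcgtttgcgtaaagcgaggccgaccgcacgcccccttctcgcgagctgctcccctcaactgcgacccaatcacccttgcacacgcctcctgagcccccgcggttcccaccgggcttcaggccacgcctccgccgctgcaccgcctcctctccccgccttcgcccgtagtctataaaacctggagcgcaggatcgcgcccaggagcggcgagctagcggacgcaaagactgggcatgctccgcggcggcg

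Expressed per length of the Ensembl canonical transcript, the levels of the members in control cells ranged from 4.72 to 799 RPKM. FTH1, the ferritin heavy chain, led with 799 ± 113 RPKM (SD, n = 2). TXNRD1 followed at 99.3 ± 6.75 RPKM and NFE2L2 at 94.1 ± 8.97 RPKM, which did not differ beyond their spread. GSR was at 59.6 ± 4.74 RPKM, KEAP1 at 23.2 ± 0.484 RPKM and NQO1 at 16.3 ± 1.83 RPKM, each apart from its neighbours in this order. GCLM at 11.1 ± 1.53 RPKM, GCLC at 9.24 ± 0.966 RPKM and HMOX1 at 7.93 ± 2.68 RPKM overlapped with the next in order, and HMOX1 also overlapped with SRXN1, the lowest member at 4.72 ± 1.20 RPKM. With EA1 siRNA 1 and EA1 siRNA 2, FTH1 was at 1632 ± 82.0 and 1465 ± 232 RPKM, and SRXN1 again had the lowest level. The level of SRXN1 is uncertain, since 2292 bases of its canonical transcript are shared with another gene on its own strand. GCLC, with a mean below that of GCLM in control but within their spread, was above it after knockdown. With EA1 siRNA 1 it was at 14.0 ± 0.085 RPKM against 6.22 ± 0.594 RPKM.

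**Figure D1:**
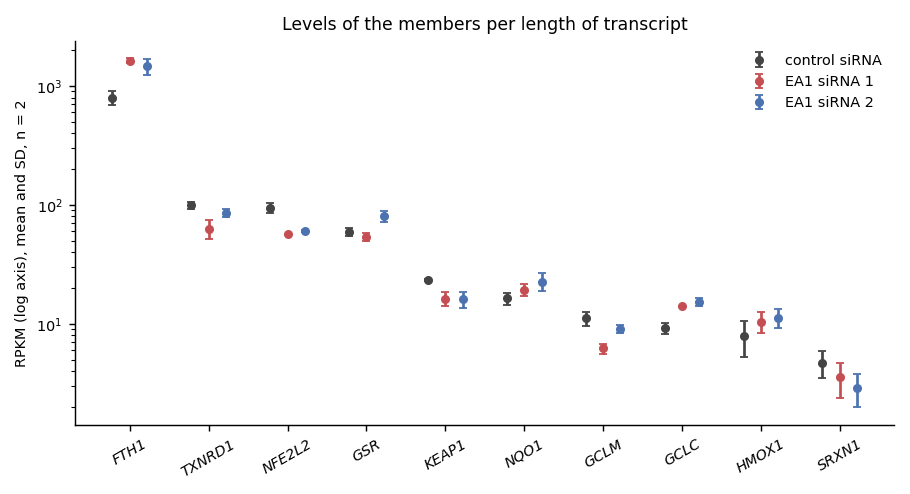
Mean level of each member in RPKM on a log axis, with the SD of 2 libraries as error bars, for control siRNA, EA1 siRNA 1 and EA1 siRNA 2. Members are ordered by their control level, from FTH1 at 799 RPKM to SRXN1 at 4.72 RPKM, and FTH1 and GCLC lie higher after knockdown while NFE2L2 and KEAP1 lie lower.

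Both knockdown comparisons use the same 2 control libraries, so they are given side by side and are not independent of each other. The sign follows the study's convention, in which a log2FC above 0 means more transcript in control cells. A gene was called at an adjusted p under 0.05, by the quasi-likelihood test of edgeR and Benjamini-Hochberg adjustment over the 14571 genes. With EA1 siRNA 1, 4 members fell and 2 rose, beside 20.3% of all genes called higher and 19.9% called lower in control. With EA1 siRNA 2, 2 members fell and 4 rose, beside 18.2% and 18.5% of all genes. Against the mean of both EA1 siRNAs, 4 members fell and 3 rose, beside 22.1% and 21.5%. The median log2FC of the members was 0.27, -0.11 and 0.15 in these comparisons, and that of all genes was -0.02, -0.00014 and -0.01. In TMM-normalized CPM, both control libraries lay above all 4 knockdown libraries for NFE2L2, KEAP1, GCLM and TXNRD1, beside 27.3% of all genes, and below all 4 for GCLC, NQO1 and FTH1, beside 28.1% of all genes. GSR, SRXN1 and HMOX1 overlapped between the groups. The members therefore did not move one way, and nothing particular to them is read from these counts, since their choice used these comparisons.

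**Figure D2:**
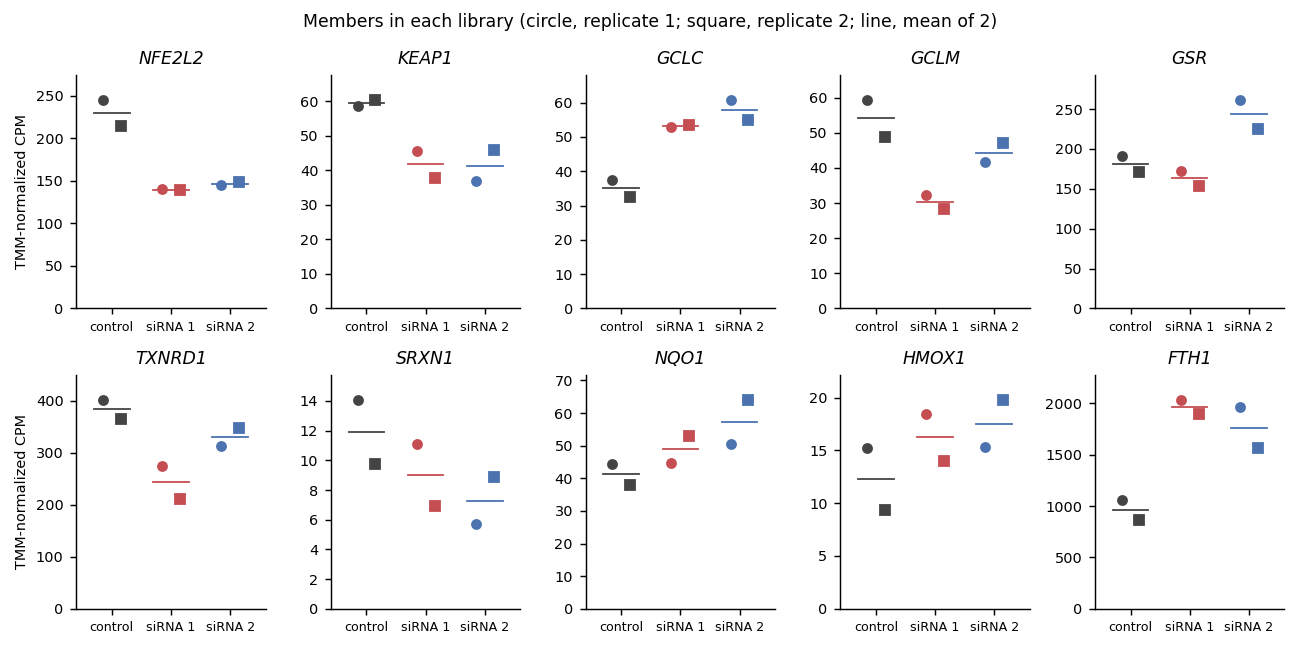
TMM-normalized CPM of each member (vertical axis from 0) in the 6 libraries, grouped by control siRNA, EA1 siRNA 1 and EA1 siRNA 2 on the horizontal axis, with circles for replicate 1, squares for replicate 2 and a line at the mean. The control libraries of NFE2L2 sit at 246 and 215 CPM, above every knockdown library, whereas those of FTH1 sit at 1057 and 865.5 CPM, below every knockdown library.

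NFE2L2 and its inhibitor KEAP1 both fell with each EA1 siRNA. NFE2L2 (hg38 chr2:177218667-177392756, minus strand) was at 246 and 215 CPM in the control libraries, 140 and 139 CPM with EA1 siRNA 1 and 145 and 149 CPM with EA1 siRNA 2. The controls stood clear of the 4 knockdown libraries, which lay within a narrow range of each other. Its log2FC was 0.72 ± 0.10 (SE) with EA1 siRNA 1 (adjusted p = 0.000189, edgeR) and 0.65 ± 0.10 with EA1 siRNA 2 (adjusted p = 0.000475, edgeR). KEAP1 (chr19:10486125-10503558, minus strand), the substrate adaptor that holds NRF2 for ubiquitination, was at 58.7 and 60.4 CPM in control, 45.7 and 37.9 CPM with EA1 siRNA 1 and 36.9 and 45.8 CPM with EA1 siRNA 2. Its controls were again the 2 highest libraries, although the knockdown replicates were spread more widely than those of NFE2L2. The log2FC of KEAP1 was 0.51 ± 0.14 with EA1 siRNA 1 (adjusted p = 0.0138, edgeR) and 0.52 ± 0.14 with EA1 siRNA 2 (adjusted p = 0.0135, edgeR). The KEAP1 call with EA1 siRNA 1 was lost without control replicate 2 (adjusted p = 0.0605, edgeR) or EA1 siRNA 1 replicate 2 (adjusted p = 0.124, edgeR), and the call with EA1 siRNA 2 was lost without control replicate 1, control replicate 2 or EA1 siRNA 2 replicate 1 (adjusted p = 0.0509, 0.0591 and 0.0622, edgeR) and in DESeq2 over 4 libraries (adjusted p = 0.0537). The ratio of NFE2L2 to KEAP1 per length overlapped between the groups, at 4.39 and 3.72 in control against 3.22 to 4.12 after knockdown.

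The exons of NFE2L2 overlap those of HNRNPA3 on the opposite strand over 3509 bases, and those of an unnamed lncRNA on the same strand over 2037 bases, none of them in the canonical transcript of NFE2L2. That lncRNA had 273 counts over the 6 libraries. Another lncRNA, on the opposite strand and not analysed here, shares 190 exonic bases with NFE2L2, all in its canonical transcript. AGPS, on the opposite strand, shares 11 bases outside it. HNRNPA3, named after its values were seen, was at 679 and 680 CPM in control, 405 and 409 CPM with EA1 siRNA 1 and 470 and 486 CPM with EA1 siRNA 2. The use of strand in the counting is not given in the sources used here, so reads from such overlaps cannot be told apart, and their part in the NFE2L2 values was not tested.

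The subunits of glutamate-cysteine ligase, which catalyses the first step of glutathione synthesis, moved in opposite directions. GCLC, the catalytic subunit (chr6:53497341-53616970, minus strand), was at 37.6 and 32.4 CPM in control, 52.9 and 53.4 CPM with EA1 siRNA 1 and 60.9 and 55.0 CPM with EA1 siRNA 2. Every knockdown library was above both controls. It rose with both, with a log2FC of -0.60 ± 0.13 (adjusted p = 0.00281, edgeR) for EA1 siRNA 1 and -0.73 ± 0.13 (adjusted p = 0.000972, edgeR) for EA1 siRNA 2. The call with EA1 siRNA 1 was at an adjusted p of 0.0506 (edgeR) without control replicate 2. GCLM, the modifier subunit (chr1:93885199-93909456, minus strand), was at 59.4 and 48.9 CPM in control, 32.4 and 28.3 CPM with EA1 siRNA 1 and 41.7 and 47.0 CPM with EA1 siRNA 2. The lower control library was close to the higher library of EA1 siRNA 2. GCLM fell with EA1 siRNA 1, with a log2FC of 0.83 ± 0.15 (adjusted p = 0.000897, edgeR). With EA1 siRNA 2 its log2FC was 0.28 ± 0.14 (95% interval -0.03 to 0.60, adjusted p = 0.148, edgeR). Against the mean of both it was 0.56 ± 0.12 (adjusted p = 0.00327, edgeR), which became 0.0672 without control replicate 1.

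Within a library, the ratio of GCLC to GCLM does not depend on how libraries are scaled. Per length, it was 0.816 and 0.856 in control, 2.11 and 2.43 for EA1 siRNA 1, and 1.89 and 1.51 for EA1 siRNA 2. Per length, GCLC was thus below GCLM in both control libraries, where their mean levels overlapped within the SD, and above it in all 4 knockdown libraries. The ratio of counts not divided by length gave the same order, at 0.632 and 0.663 in control and 1.17 to 1.88 after knockdown. No test of the ratio was run. GCLC exons share 305 bases with GCLC-AS1 on the opposite strand and 529 bases, outside the canonical transcript, with an unnamed lncRNA on the same strand, and neither was analysed here.

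**Figure D3:**
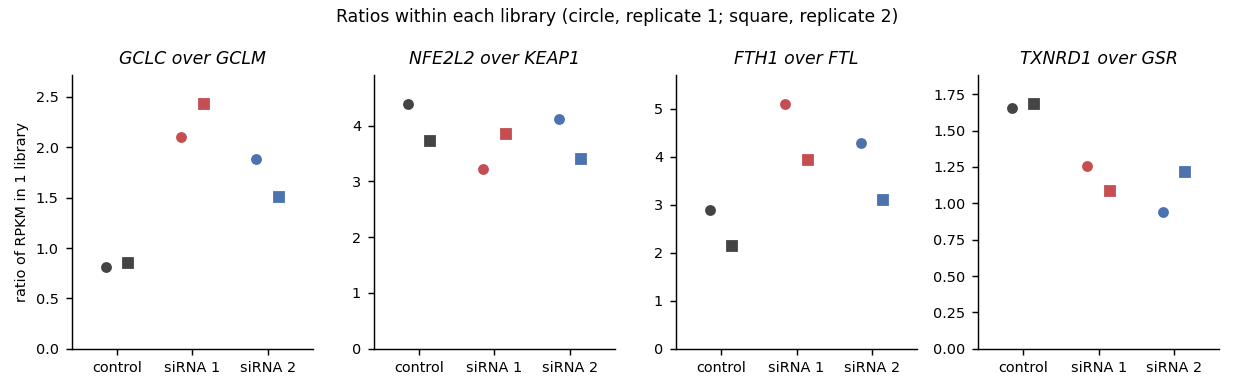
Ratio of RPKM values within each library (vertical axis from 0) for GCLC over GCLM, NFE2L2 over KEAP1, FTH1 over FTL and TXNRD1 over GSR, with circles for replicate 1 and squares for replicate 2 of each condition. GCLC over GCLM is 0.816 and 0.856 in control and between 1.51 and 2.43 after knockdown, while NFE2L2 over KEAP1 overlaps between the groups.

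For both reductases that recycle glutathione and thioredoxin with NADPH, the libraries of EA1 siRNA 1 lay below those of EA1 siRNA 2. TXNRD1, cytosolic thioredoxin reductase (chr12:104215779-104350307, plus strand), was at 402 and 365 CPM in control, 275 and 212 CPM with EA1 siRNA 1 and 313 and 348 CPM with EA1 siRNA 2. Its controls were above every knockdown library, with EA1 siRNA 2 in between. It fell with EA1 siRNA 1, with a log2FC of 0.65 ± 0.13 (adjusted p = 0.00188, edgeR). With EA1 siRNA 2 the log2FC was 0.21 ± 0.13 (95% interval -0.07 to 0.50, adjusted p = 0.224, edgeR). Against the mean of both, TXNRD1 had a log2FC of 0.43 ± 0.11 (adjusted p = 0.00736, edgeR), which became 0.092 without control replicate 1. GSR, glutathione reductase (chr8:30678066-30727846, minus strand), was at 191 and 171 CPM in control, 172 and 154 CPM with EA1 siRNA 1 and 262 and 225 CPM with EA1 siRNA 2. The libraries of EA1 siRNA 1 overlapped the controls and those of EA1 siRNA 2 were above them. It rose with EA1 siRNA 2, with a log2FC of -0.43 ± 0.11 (adjusted p = 0.0118, edgeR), a call lost without control replicate 2 (adjusted p = 0.150, edgeR) or EA1 siRNA 2 replicate 1 (adjusted p = 0.0757, edgeR). With EA1 siRNA 1 its log2FC was 0.15 ± 0.11 (95% interval -0.11 to 0.40, adjusted p = 0.342, edgeR).

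Per length, TXNRD1 was above GSR in both controls, at ratios of 1.66 and 1.68. The ratio was 1.25 and 1.08 for EA1 siRNA 1, and 0.938 and 1.22 for EA1 siRNA 2, below both controls in every knockdown library. SRXN1, sulfiredoxin, which restores overoxidized peroxiredoxins (chr20:646615-653200, minus strand), had the fewest counts of the members, 32 to 94 per library. It was at 14.1 and 9.77 CPM in control, 11.1 and 6.92 CPM with EA1 siRNA 1 and 5.70 and 8.84 CPM with EA1 siRNA 2, and the groups overlapped. Its log2FC was 0.39 ± 0.31 (95% interval -0.30 to 1.08, adjusted p = 0.356, edgeR) with EA1 siRNA 1 and 0.69 ± 0.32 (95% interval -0.01 to 1.40, adjusted p = 0.117, edgeR) with EA1 siRNA 2. The intervals held both no difference and a fall of SRXN1 by more than 2-fold. Without EA1 siRNA 2 replicate 2 the difference with EA1 siRNA 2 passed the test (log2FC 1.09, adjusted p = 0.0368, edgeR). SRXN1 shares 2292 exonic bases with an unnamed protein-coding gene on its own strand, not analysed here, so its counts are uncertain.

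NQO1 and HMOX1, classical NRF2 targets, had higher means after knockdown, and the difference was near the spread between libraries. NQO1, a quinone reductase (chr16:69706996-69726668, minus strand), was at 44.5 and 37.9 CPM in control, 44.8 and 53.0 CPM with EA1 siRNA 1 and 50.4 and 64.0 CPM with EA1 siRNA 2. Its higher control was nearly level with the lowest knockdown library. The log2FC of NQO1 was -0.25 ± 0.15 (95% interval -0.58 to 0.09, adjusted p = 0.226, edgeR) with EA1 siRNA 1. It rose with EA1 siRNA 2, with a log2FC of -0.48 ± 0.15 (adjusted p = 0.0281, edgeR), and against the mean of both, with -0.36 ± 0.13 (adjusted p = 0.0449, edgeR). The NQO1 call with EA1 siRNA 2 was lost in DESeq2 (adjusted p = 0.0757) and without control replicate 2, EA1 siRNA 1 replicate 2 or EA1 siRNA 2 replicate 2 (adjusted p = 0.237, 0.0512 and 0.253, edgeR). The averaged NQO1 call was lost with RLE size factors (adjusted p = 0.0532, edgeR), in DESeq2 (adjusted p = 0.129) and without any of 4 libraries, control replicates 1 and 2, EA1 siRNA 1 replicate 2 and EA1 siRNA 2 replicate 2 (adjusted p = 0.0617, 0.387, 0.180 and 0.136, edgeR). NQO1 shares 575 exonic bases with an antisense lncRNA not analysed here.

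HMOX1, heme oxygenase 1, which splits heme and frees its iron (chr22:35380361-35394214, plus strand), had 73 to 141 counts per library. It was at 15.3 and 9.39 CPM in control, 18.5 and 14.0 CPM with EA1 siRNA 1 and 15.3 and 19.8 CPM with EA1 siRNA 2. One control library lay within the range of the knockdown libraries. The log2FC of HMOX1 was -0.41 ± 0.26 (95% interval -0.99 to 0.16, adjusted p = 0.239, edgeR) with EA1 siRNA 1 and -0.53 ± 0.26 (95% interval -1.10 to 0.05, adjusted p = 0.140, edgeR) with EA1 siRNA 2. Without control replicate 1, the HMOX1 difference passed the test with EA1 siRNA 2 (log2FC -0.91, adjusted p = 0.0409, edgeR) and against the mean of both (log2FC -0.85, adjusted p = 0.0338, edgeR).

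FTH1, the ferroxidase subunit of the ferritin shell that stores iron (chr11:61959718-61967634, minus strand), had the highest level and the largest change of the members. It was at 1057 and 865.5 CPM in control, 2033 and 1893 CPM with EA1 siRNA 1 and 1961 and 1565 CPM with EA1 siRNA 2. All knockdown libraries stood far above both controls. FTH1 rose 2.04-fold with EA1 siRNA 1, with a log2FC of -1.03 ± 0.14 (adjusted p = 0.000147, edgeR), and 1.83-fold with EA1 siRNA 2, with a log2FC of -0.88 ± 0.14 (adjusted p = 0.000557, edgeR). The light chain FTL was at 265 and 293 CPM in control against 289 to 367 CPM after knockdown. Per length, the ratio of FTH1 to FTL was 2.89 and 2.14 in control, 5.10 and 3.93 for EA1 siRNA 1, and 4.29 and 3.09 for EA1 siRNA 2. Every knockdown library was thus above both controls in this ratio as well.

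FTH1 exons share 1267 bases with BEST1 on the opposite strand, 880 of them in the canonical transcript of FTH1. BEST1, a chloride channel gene named after its values were seen, was at 33.1 and 35.7 CPM in control, 221 and 181 CPM with EA1 siRNA 1 and 304 and 247 CPM with EA1 siRNA 2. Reads in the shared bases cannot be told apart where strand was not used, so the BEST1 values may hold reads of FTH1 and the reverse, which was not tested. The 8 FTH1 pseudogenes in the counts summed to 432 counts over the 6 libraries, against 61745 counts of FTH1.

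**Figure D4:**
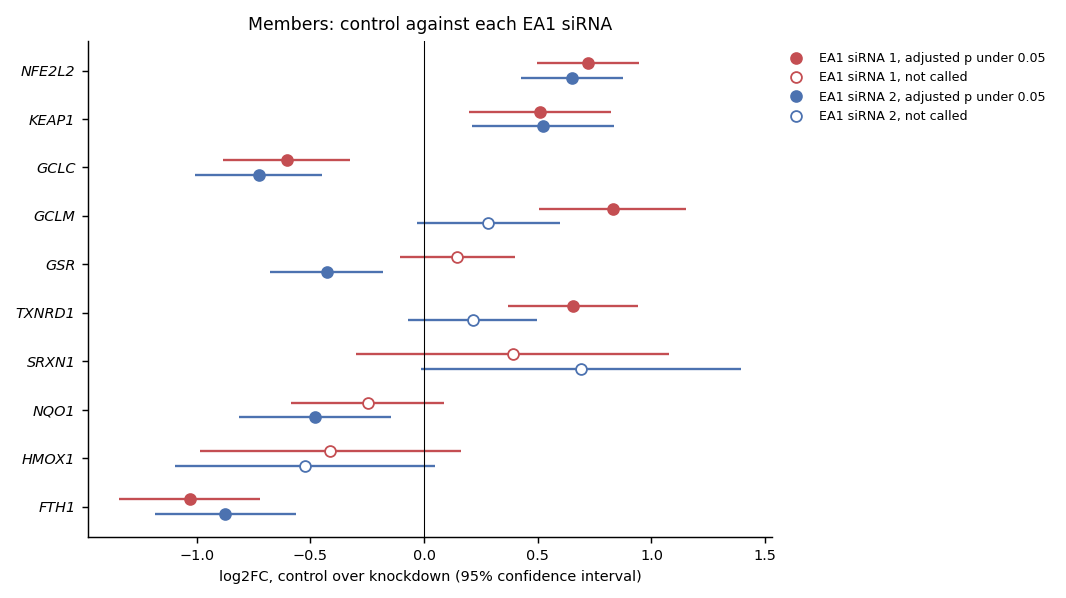
log2FC of each member, control over knockdown, with its 95% confidence interval on the horizontal axis, for EA1 siRNA 1 in red and EA1 siRNA 2 in blue. Filled points passed an adjusted p of 0.05 in edgeR and open points did not; NFE2L2 and KEAP1 lie right of 0 and GCLC and FTH1 left of 0 with both EA1 siRNAs, and GSR lies on either side of 0.

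The EA1 siRNAs were also compared directly, with a positive log2FC for higher expression with EA1 siRNA 1. No member was called higher and 1, GSR, was called lower with EA1 siRNA 1, beside 0.796% and 1.44% of all genes. The log2FC of GSR was -0.58 ± 0.11 (adjusted p = 0.0269, edgeR), a call lost without control replicate 1, EA1 siRNA 1 replicate 1 or EA1 siRNA 1 replicate 2 (adjusted p = 0.0511, 0.0922 and 0.332, edgeR). GCLM and TXNRD1 were also lower with EA1 siRNA 1, with a log2FC of -0.55 ± 0.15 (adjusted p = 0.0873, edgeR) and -0.44 ± 0.13 (adjusted p = 0.107, edgeR). With the replicate number as a block, which pairs these libraries, both passed the test. The log2FC was then -0.55 for GCLM (adjusted p = 0.0365, edgeR) and -0.45 for TXNRD1 (adjusted p = 0.0345, edgeR). With the block 3 members were called, and the share of all genes called rose as well, from 2.24% to 5.85%. TXNRD1 also passed in DESeq2 (adjusted p = 0.0309), and both passed without EA1 siRNA 2 replicate 1 (adjusted p = 0.0475 for GCLM and 0.0382 for TXNRD1, edgeR). For NFE2L2, KEAP1, GCLC and FTH1, the members called with both EA1 siRNAs, the log2FC between them was -0.07 (adjusted p = 0.797, edgeR), 0.01 (adjusted p = 0.978, edgeR), -0.12 (adjusted p = 0.687, edgeR) and 0.16 (adjusted p = 0.645, edgeR).

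Beyond the members, 115 genes of 7 pathway lists were followed, of which 101 were in the counts and 98 were tested. The other 14 were not analysed here. With EA1 siRNA 1, 16 fell and 24 rose with a median log2FC of -0.06, so that 40.8% were called beside 40.1% of all genes. With EA1 siRNA 2, 15 fell and 29 rose with a median of -0.13, so that 44.9% were called beside 36.7% of all genes. Against the mean of both, 17 fell and 27 rose with a median of -0.09, and 44.9% were called beside 43.5% of all genes. Between the EA1 siRNAs 5 of the 98 were called, or 5.1%, beside 2.24% of all genes, and 12 were called with the replicate block, under which the share of all genes was 5.85%. Of all genes, 20.3% fell and 19.9% rose with EA1 siRNA 1, and 18.2% fell and 18.5% rose with EA1 siRNA 2. Against the mean of both, 22.1% fell and 21.5% rose. More pathway genes rose than fell in each of these comparisons, while all genes were nearly even. The shares between the EA1 siRNAs rest on few genes. The lists were chosen with earlier results of these data known, so nothing particular to them is read from these shares. Both controls were above all 4 knockdown libraries for 21 of the 98 genes and below them for 32, beside the same 27.3% and 28.1% of all genes. The values below are log2FC against the mean of both EA1 siRNAs, in which 22.1% of all genes fell and 21.5% rose, and the genes are the most changed in each direction among those called in their list, together with a few that are central to the pathway.

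Of 16 NRF2 regulators and partners, 4 fell and 2 rose. MAFK, a small MAF partner of NRF2 and BACH1, was at 118 and 111 CPM in control and 13.5 to 17.8 CPM in the knockdown libraries, and it fell with a log2FC of 2.91 ± 0.10 (adjusted p = 1.39e-08, edgeR). BACH2, a repressor of the same bZIP group, also fell, with a log2FC of 1.99 ± 0.19 (adjusted p = 7.86e-06, edgeR). MAFF, another small MAF, rose with -0.55 ± 0.10 (adjusted p = 0.00121, edgeR), so the small MAF genes did not move together. MAFG was at 0.21 ± 0.10 (adjusted p = 0.108, edgeR), and was called with EA1 siRNA 1 alone (log2FC 0.35, adjusted p = 0.0306, edgeR). Its averaged value passed without control replicate 2 or EA1 siRNA 2 replicate 2 (adjusted p = 0.0321 and 0.0432, edgeR). BTRC, an F-box protein of another ubiquitin ligase for NRF2, rose with -0.36 ± 0.12 (adjusted p = 0.0285, edgeR). With EA1 siRNA 2 it was not called (adjusted p = 0.0712, edgeR), and the averaged call was lost in DESeq2 (adjusted p = 0.115) and without control replicate 1, EA1 siRNA 2 replicate 1 or EA1 siRNA 1 replicate 2 (adjusted p = 0.259, 0.0553 and 0.116, edgeR). BACH1, the repressor that competes with NRF2 at the ARE, was at 0.29 ± 0.11 (adjusted p = 0.0581, edgeR), and was called with EA1 siRNA 2 (log2FC 0.39, adjusted p = 0.037, edgeR). The averaged value of BACH1 passed with the replicate block or RLE size factors (adjusted p = 0.0427 and 0.0467, edgeR) and without EA1 siRNA 1 replicate 1 or EA1 siRNA 2 replicate 2 (adjusted p = 0.0334 and 0.0177, edgeR). CUL3, the scaffold of the KEAP1 ligase, was at 0.21 ± 0.09 (adjusted p = 0.0692, edgeR), and passed with the replicate block (adjusted p = 0.0494, edgeR) and without EA1 siRNA 2 replicate 1 (adjusted p = 0.0357, edgeR). SQSTM1, which competes with NRF2 for KEAP1, was at 0.06 ± 0.14 (adjusted p = 0.759, edgeR).

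Of 9 tested genes of cystine import and glutathione turnover, 3 fell and 1 rose. CTH, which makes cysteine from cystathionine, fell from 289 and 303 CPM in control to 24.8 to 28.8 CPM, a log2FC of 3.45 ± 0.09 (adjusted p = 4.25e-09, edgeR), larger than that of any other tested gene in the 7 lists. LAP3, an aminopeptidase, fell with 1.02 ± 0.09 (adjusted p = 4.34e-06, edgeR). SLC3A2, the heavy chain of the cystine transporter, rose with -0.46 ± 0.11 (adjusted p = 0.00453, edgeR), a call lost without control replicate 2 (adjusted p = 0.135, edgeR). SLC7A11, its light chain, was at 0.19 ± 0.19 (95% interval -0.22 to 0.61, adjusted p = 0.441, edgeR).

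Of 21 tested glutathione peroxidases, transferases and glutaredoxins, 3 fell and 8 rose. GLRX2, a mitochondrial glutaredoxin, fell with a log2FC of 0.76 ± 0.10 (adjusted p = 6.51e-05, edgeR) and GPX1, a glutathione peroxidase, with 0.70 ± 0.10 (adjusted p = 0.000172, edgeR). The transferases GSTA4 and GSTP1 rose, with -1.93 ± 0.19 (adjusted p = 1.04e-05, edgeR) and -1.16 ± 0.16 (adjusted p = 0.000115, edgeR). GPX4, which reduces lipid peroxides, was at 0.08 ± 0.12 (95% interval -0.19 to 0.34, adjusted p = 0.645, edgeR).

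Of 19 thioredoxins, peroxiredoxins and sulfoxide reductases, 4 fell and 4 rose. TXNIP, the thioredoxin-interacting protein, fell with 0.60 ± 0.12 (adjusted p = 0.00227, edgeR). Its log2FC was 0.26 with EA1 siRNA 1 (adjusted p = 0.179, edgeR) and 0.93 with EA1 siRNA 2 (adjusted p = 0.000528, edgeR). The fall of PRDX6, a peroxiredoxin, was 0.43 ± 0.08 (adjusted p = 0.00117, edgeR). SESN3, a sestrin, rose from 38.5 and 28.8 CPM in control to 115 to 302 CPM, a log2FC of -2.60 ± 0.16 (adjusted p = 2.72e-07, edgeR), and MSRB3, a methionine sulfoxide reductase, rose with -2.48 ± 0.27 (adjusted p = 2.34e-05, edgeR). TXN, the substrate of TXNRD1, was at 0.09 ± 0.09 (95% interval -0.10 to 0.29, adjusted p = 0.435, edgeR). Of 4 superoxide dismutases and catalase, SOD3, the extracellular enzyme, fell with 2.14 ± 0.08 (adjusted p = 1.90e-08, edgeR), at 259 and 260 CPM in control against 56.5 to 60.5 CPM. SOD2, the mitochondrial enzyme, and CAT, catalase, rose with -0.45 ± 0.09 each (adjusted p = 0.00211 and 0.00212, edgeR), and the CAT call was lost without control replicate 2 (adjusted p = 0.05498, edgeR).

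Of 12 tested genes of heme and iron handling, 1 fell and 3 rose against the mean. With EA1 siRNA 1, 1 fell and 2 rose, or 25% called beside 40.1% of all genes. With EA1 siRNA 2 none fell and 7 rose, or 58.3% called beside 36.7% of all genes. Both shares rest on 12 genes, and a gene called with 1 EA1 siRNA alone need not differ between them. Between the EA1 siRNAs 1 of the 12, TFRC, was called. BLVRB, a biliverdin reductase, fell with 0.75 ± 0.18 (adjusted p = 0.00600, edgeR). Its log2FC was 1.14 with EA1 siRNA 1 (adjusted p = 0.00174, edgeR) and 0.37 with EA1 siRNA 2 (adjusted p = 0.210, edgeR), and the averaged call was lost without control replicate 1 (adjusted p = 0.0968, edgeR). SLC11A2, the importer of ferrous iron, and ACO1, the iron-responsive RNA-binding protein, rose with -1.02 ± 0.10 (adjusted p = 1.11e-05, edgeR) and -0.81 ± 0.14 (adjusted p = 0.000579, edgeR). FTL was at -0.26 ± 0.10 (adjusted p = 0.0621, edgeR), against -0.95 ± 0.13 for FTH1 (adjusted p = 9.45e-05, edgeR). FTL was called with EA1 siRNA 2 (log2FC -0.32, adjusted p = 0.0496, edgeR), and its averaged value passed with the replicate block (adjusted p = 0.0168, edgeR) and without EA1 siRNA 1 replicate 1 or EA1 siRNA 2 replicate 1 (adjusted p = 0.0350 and 0.0304, edgeR). Of 17 tested genes of NADPH supply and detoxification, 1 fell and 7 rose. CBR3, a carbonyl reductase, fell with 1.31 ± 0.22 (adjusted p = 0.000514, edgeR), while ABCC2, an exporter of glutathione conjugates, and PIR, pirin, rose with -1.82 ± 0.16 (adjusted p = 4.32e-06, edgeR) and -1.51 ± 0.13 (adjusted p = 3.90e-06, edgeR). Against the mean of both, each of the 7 lists held called genes in both directions. In several lists 1 of the directions rests on 1 gene. These are BLVRB for heme and iron handling, CBR3 for NADPH supply and detoxification, SOD3 for superoxide dismutases and catalase, and SLC3A2 for cystine import and glutathione turnover.

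**Figure D5:**
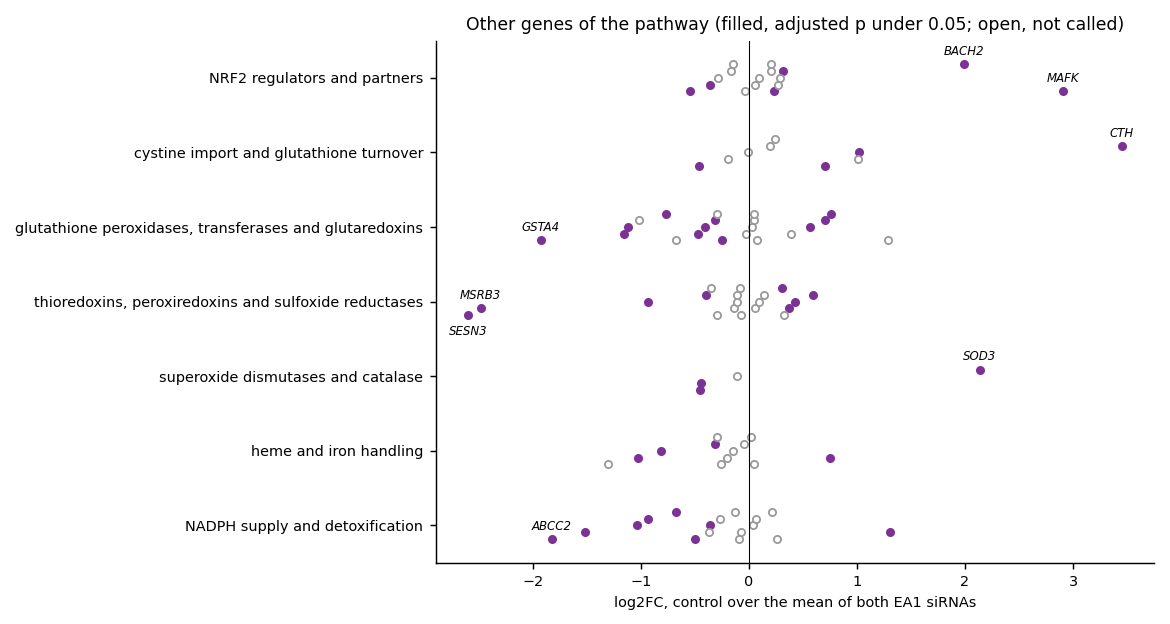
log2FC of the 98 tested pathway genes, control over the mean of both EA1 siRNAs, in 7 lists, with filled points for an adjusted p under 0.05 in edgeR and open points otherwise; the offset within a list only separates points. CTH at 3.45 and MAFK at 2.91 are the highest and SESN3 at -2.60 and MSRB3 at -2.48 the lowest values.

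The genes with the pattern most like that of NFE2L2 over the 6 libraries, by Pearson correlation of log2 CPM across all tested genes, were FRMD7 (0.9985), TRIM28 (0.9959), XPO5 (0.9954), H1-4 (0.9953) and NLGN4X (0.9953). With 6 libraries in 3 conditions, 765 of the other 14570 genes reached 0.95, so such values are common and are given as a description. Among the members, the correlation with NFE2L2 was 0.8878 for KEAP1, 0.8110 for GCLM, 0.7556 for TXNRD1 and 0.6749 for SRXN1. It was -0.1446 for GSR, -0.5179 for HMOX1, -0.6073 for NQO1, -0.9015 for GCLC and -0.9215 for FTH1. These values share the libraries, their depth and the contrast between control and knockdown.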

How the data were processed

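Stranded libraries were made from polyadenylated RNA. The authors used BWA-MEM for alignment on hg38 and featureCounts 1.6.3 for reads per gene, and deposited the raw counts of 18118 genes, neither normalized nor pooled. BWA-MEM does not model splicing, which can lose reads across exon junctions. The gene annotation behind the counts and whether strand was used are not given in the sources used here. The sample labels gave each library its condition and replicate number.

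These counts were analysed with edgeR 4.0.16 (R 4.3.3) over all 6 libraries as 3 conditions. The filter, filterByExpr with a minimum count of 10 and a minimum total of 15, kept 14571 genes. After TMM scaling, the quasi-likelihood test was run, and p-values were adjusted over all genes tested by the Benjamini-Hochberg method. Standard errors were taken from the F statistic. Log2 CPM used a prior count of 2. RPKM divided TMM-normalized CPM by the length of the Ensembl canonical transcript in GENCODE 44, from which hg38 positions and exon overlaps were also taken. The fit was tested on simulated counts with known changes. Replicates of a condition differed beyond sampling noise, so none was counted as a duplicate.

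The members and lists were chosen with earlier results of these data known. Besides all members and 8 central pathway genes, the text names from each list the 2 genes called with the largest averaged log2FC in each direction, the 5 genes most correlated with NFE2L2, and the promoters of members called with both EA1 siRNAs. Deviations of same-numbered libraries correlated at 0.130, 0.199 and 0.144 between conditions, and the numbers were treated as pairs in the fit with a replicate block. Other alternatives were RLE size factors, no filter or at least 10 counts in every library, each library left out, and DESeq2 1.42.0, run on 3 conditions or on just the 4 libraries of a comparison.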

Additional observations from a re-analysis of the deposited data

Results flagged for a closer look

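Of the 10 members and 98 tested pathway genes, 6 were called between the EA1 siRNAs, beside 2.24% of all genes. The test was that of edgeR with Benjamini-Hochberg adjustment over all genes. So few genes from chosen lists are given as a description. GSR, glutathione reductase, had a log2FC of -0.58 between EA1 siRNA 1 and EA1 siRNA 2 (adjusted p = 0.0269), and its libraries were at 172 and 154 CPM with EA1 siRNA 1 against 262 and 225 CPM with EA1 siRNA 2. LAP3 differed by -0.49 (adjusted p = 0.0457), a call lost without any of 5 libraries, the exception being EA1 siRNA 2 replicate 2. The LAP3 call was also lost in DESeq2 over only the 4 libraries compared (adjusted p = 0.136, DESeq2). GSTO1, a glutathione transferase of the omega class, differed by -0.89 (adjusted p = 0.0118), with a log2FC against control of 0.49 (adjusted p = 0.0193) for EA1 siRNA 1 and -0.40 (adjusted p = 0.0464) for EA1 siRNA 2. The GSTO1 difference was lost without EA1 siRNA 1 replicate 1 or replicate 2 (adjusted p = 0.0640 and 0.197).

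TXNIP differed by 0.67 (adjusted p = 0.0443), a call also lost without any of 5 libraries, again except EA1 siRNA 2 replicate 2. SESN3 differed by 1.15 (adjusted p = 0.00440) and rose with both EA1 siRNAs, with a log2FC of -3.17 and -2.02 against control. TFRC, the transferrin receptor that imports iron, differed by -1.10 (adjusted p = 0.00612). Its log2FC against control was 0.40 (adjusted p = 0.0594) for EA1 siRNA 1 and -0.70 (adjusted p = 0.00419) for EA1 siRNA 2, and the difference was lost without EA1 siRNA 1 replicate 1 (adjusted p = 0.0531).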

How the results depend on the processing

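The calls of NFE2L2 and FTH1 with each EA1 siRNA held under every alternative run. Counts of members called were 6, 6 and 7 in the comparisons with EA1 siRNA 1, EA1 siRNA 2 and their mean, beside 40.1%, 36.7% and 43.5% of all genes. The replicate block, which pairs libraries of the same number, left these member counts unchanged. Between the EA1 siRNAs, 2.24% of all genes were called, and 5.85% with the block. Shares of all genes under the other alternatives are not given here, so no shift in a count below is read as particular to the members or lists. Leaving out 1 library gave 4 to 6, 3 to 6 (3 without control replicate 2) and 5 to 7 members. Between the EA1 siRNAs, 1 member was called, 3 with the replicate block, 2 in DESeq2 over 3 conditions and 0 to 3 with 1 library left out. It was 0 without control replicate 1 or either replicate of EA1 siRNA 1, and 3 without EA1 siRNA 2 replicate 1. Pathway genes called between the EA1 siRNAs were 5, 12 with the replicate block and 1 to 12 with 1 library left out. They were 1 and 2 without EA1 siRNA 1 replicate 1 and replicate 2, 3 without either control library and 12 without EA1 siRNA 2 replicate 2. In the other comparisons pathway counts stayed within 1.5 times the value given. RLE size factors moved the median of all genes by under 0.1 on the log2 scale.

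Directions reversed in results that did not pass the test, when 1 library was left out. Between the EA1 siRNAs, the log2FC ranged from -0.13 to 0.19 for KEAP1, -0.086 to 0.68 for SRXN1, -0.33 to 0.10 for HMOX1 and -0.14 to 0.0066 for EWSR1. EWSR1 ranged from -0.046 to 0.16 against EA1 siRNA 2 and -0.013 to 0.19 against the mean of both. In the latter comparison SQSTM1 ranged from -0.13 to 0.27, SLC7A11 from -0.076 to 0.46 and GPX4 from -0.0078 to 0.22. Of the values of single members and targeted genes under an alternative, 521 kept their direction and side of the threshold, 25 lost and 9 gained a call, and 9 reversed. The cause was not tested. With a library left out, a lone replicate was assumed to vary like the other conditions. DESeq2 over only the libraries compared was not run for the averaged contrast, which uses all 6. With 2 libraries a condition, SRXN1 and HMOX1, with 32 to 141 counts, had the widest intervals of the members.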
